A study of Mus musculus with 53 samples.

Results

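Mouse embryonic fibroblasts (MEFs), primary mesenchymal cells grown from dissociated embryos, were compared between a knockout of Anp32e (KO) and wild type (WT) while both were under decitabine (DAC), an inhibitor of DNA methyltransferases. The comparison rests on 6 RNA libraries, 3 labelled KO DAC and 3 labelled WT DAC. It was described across the 16434 genes that reached an FPKM (read count scaled by gene length and library size) of 1 in at least 2 libraries of the DAC table, out of 43432 gene entries. The table's other libraries are the same genotypes given the solvent DMSO, 2 KO DMSO and 2 WT DMSO. A separate table in RPKM, the same kind of unit, holds KO and WT cells given a control siRNA labelled NT, 3 libraries each. Both sets are used here only beside the DAC comparison. All groups are MEFs, and the libraries were made from total RNA with a stranded kit. The sources used here do not give the knockout allele, the strain, the dose or the length of the DAC treatment. The libraries are called biological replicates, but nothing says whether they came from separate embryos or cultures, so p-values measure only the spread between these samples.

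ANP32E is a histone chaperone that takes the variant histone H2A.Z out of nucleosomes. H2A.Z sits at many active promoters and is largely kept apart from methylated DNA. Decitabine is built into DNA, traps DNA methyltransferases and so lowers DNA methylation in dividing cells, which in fibroblasts is known to derepress germline genes and endogenous retroviruses and to set off an interferon response. The comparison asks how expression differs between cells labelled KO and WT for Anp32e under decitabine. These RNA libraries measure neither ANP32E protein nor DNA methylation.

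The 6 libraries held 30731387 to 36910532 reads, recovered from the steps between FPKM values, so 1 read in a gene of 1 kb is worth 0.0271 to 0.0325 FPKM. Pearson's r across genes, on log2(FPKM + 1), was 0.981 to 0.9872 within KO DAC, 0.9791 to 0.9865 within WT DAC and 0.9567 to 0.9669 between them (across genes, which are not independent). The library least like the others of its group was replicate 3 in WT DAC and replicate 1 in KO DAC. The KO DAC libraries were less like KO DMSO (0.912 to 0.9178) than like WT DAC. Of 12 fibroblast markers 10 had a mean of at least 1 FPKM in KO DAC and 11 in WT DAC, with sums of 1200 to 1380 and 1490 to 1690 FPKM. Of 17 macrophage and leukocyte markers 3 had a mean of at least 1 FPKM in KO DAC and 4 in WT DAC. The 17 summed to 18.3 to 19.7 and 20.1 to 23.3 FPKM, with Adgre1, C1qa, C1qc and Tyrobp listed at 0 in all 6 libraries. The genotypes also differed in sex-linked transcripts. The Y-linked genes summed to 18.9 to 21.7 FPKM in KO DAC and 0 to 0.164 in WT DAC, and Xist, the RNA that coats an inactive X chromosome, stood at 44.4, 28.9 and 28.5 FPKM in KO DAC against 136, 139.6 and 210.1 in WT DAC (−2.22 ± 0.21, adjusted p = 0.00016). In the DMSO libraries Xist was at 0.923 and 0.579 in KO and 169.7 and 181 in WT. The Y-linked genes summed there to 10.1 to 11.3 FPKM in KO and 0.0125 to 0.0487 in WT. Sex and genotype therefore cannot be told apart here, and the KO libraries under DAC and in DMSO differ in Xist and in the Y-linked sum by more than their replicates do.

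Anp32e itself (ENSMUSG00000015749, mm10, chromosome 3, 95929245 to 95947387) was at 6.34, 7.05 and 7.48 FPKM in the KO DAC libraries and 17.2, 15.8 and 14.1 in the WT DAC libraries, with no overlap. The fitted difference, KO minus WT on the log2(FPKM + 1) scale and given here as estimate ± standard error, was −1.07 ± 0.08 (limma, Benjamini-Hochberg adjusted p = 5.5e-05). Transcript was thus lower, not absent, in the libraries labelled KO. Its paralogue Anp32a stood at 14.5, 16.3 and 16.4 in KO and 16.5, 16.3 and 15 in WT, which did not pass the threshold (−0.02 ± 0.07, adjusted p = 0.88). Anp32b, the other close paralogue, was at 108, 120.0 and 122 against 98.7, 101 and 100.1. It was called higher (0.22 ± 0.07, adjusted p = 0.046), a call that was lost in 5 of the 6 fits that left out 1 library (all but KO DAC replicate 1). The H2A.Z genes overlapped between the genotypes. H2afz had 96.8, 127 and 127 FPKM in KO and 119, 114 and 84.9 in WT (0.15 ± 0.14, adjusted p = 0.52), and H2afv 18.1, 19.6 and 19.3 against 20.5, 19.6 and 16.5 (0.02 ± 0.09, adjusted p = 0.92).

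Among 28 genes of H2A.Z chaperones and remodellers, 3 were called higher and 1, Anp32e, lower. For comparison, 11.1% of all genes tested were called higher and 11.6% lower. Besides Anp32b the higher ones were Ruvbl2, an ATPase shared by the H2A.Z-depositing SRCAP and TIP60 complexes (23.9, 23.6 and 24.2 against 19.3, 20.8 and 19 FPKM, 0.27 ± 0.04), and Ep400, the motor of TIP60 (0.20 ± 0.04). Without WT DAC replicate 2 only 1 of the 3 higher calls was left, and without WT DAC replicate 3 there were 2 higher and 3 lower.

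Across the 16434 genes 1828 were higher and 1902 lower in KO under DAC at an adjusted p under 0.05, which is 22.7% of genes. These are 11.1% and 11.6% of genes, the shares to set beside each count of list members under DAC below. Most differences were small on the log2(FPKM + 1) scale, which understates folds of genes near or below 1 FPKM. At a 2-fold minimum on that scale 191 genes (1.16%) were higher and 172 (1.05%) lower. The 3 KO libraries lay wholly above the 3 WT libraries in 3054 genes (18.6%) and wholly below in 3004 (18.3%). The median difference of all genes was −0.001. Each gene called under DAC and named below had KO DAC libraries wholly on one side of the WT DAC libraries, which the call itself does not require. The naming rule required it for the genes with the largest differences and favoured large differences in the lists, so it is a description and not added support.

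The 3 largest rises were in a gene of the mesothelium (the epithelium-like lining of the body cavities), a germ-cell gene and a limb regulator. Upk3b (chromosome 5, 136038496 to 136044993), a uroplakin and mesothelial marker, was at 29.6, 33.9 and 35.1 FPKM in KO DAC and 0.0659, 0.0252 and 2.06 in WT DAC (4.50 ± 0.36, adjusted p = 6.9e-05). Rbm46, an RNA-binding protein of germ cells, had 18.1, 12.6 and 14.2 FPKM in KO and 0.0247, 0 and 0.3 in WT (3.84 ± 0.14, adjusted p = 1.1e-06). Tbx4, the T-box factor of the hindlimb (chromosome 11, 85886367 to 85916097), stood at 13.6, 15.2 and 16 against 0.0545, 0.104 and 0.239 (3.81 ± 0.09, adjusted p = 1.6e-07). WT DAC replicate 3 was the highest WT library in each of these genes, and its Upk3b level stood well above that of the other WT libraries.

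The other rises named by the same rule were Upk1b (3.59), the large receptor-like gene Pkhd1l1 (3.30), the membrane glycoprotein Gpm6a (2.93), the proteolipid Mal2 (2.74), the sialomucin Podxl (2.69), the guanine deaminase Gda (2.65) and the Y-linked Eif2s3y (2.99) and Ddx3y (2.63). Rps3a3 (3.12) is a near-identical copy of a ribosomal protein gene, so its reads may be shared with other loci and its value is uncertain.

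The largest fall was in Tbx5, the T-box factor of the forelimb (chromosome 5, 119796514 to 119885220). It was at 0.132, 0.219 and 0.206 FPKM in KO and 14.8, 15.3 and 19 in WT (−3.86 ± 0.09, adjusted p = 1.6e-07), so Tbx4 and Tbx5 stood in opposite order in the 2 genotypes. Sod3, the secreted superoxide dismutase, fell to 1.06, 1.06 and 0.956 from 13.2, 14.8 and 21.8 (−3.09 ± 0.16, adjusted p = 5.8e-06). The carbonyl reductase Cbr2 was at 3.31, 2.6 and 2.94 against 27, 26.6 and 25.4 (−2.79 ± 0.07, adjusted p = 1.9e-07). Next came the melanocortin receptor Mc5r (−2.79), the matrix protein Svep1 (−2.71), the Wnt antagonist Sfrp2 (−2.58), the collagen Col10a1 (−2.57), thrombomodulin Thbd (−2.56), Rarres1 (−2.54), fibrillin Fbn2 (−2.47), the zinc-finger factor Sall1 (−2.43) and nidogen Nid2 (−2.29). All 24 of these genes kept their direction and their call in every other setting that gave them a value.

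**Figure D1:**
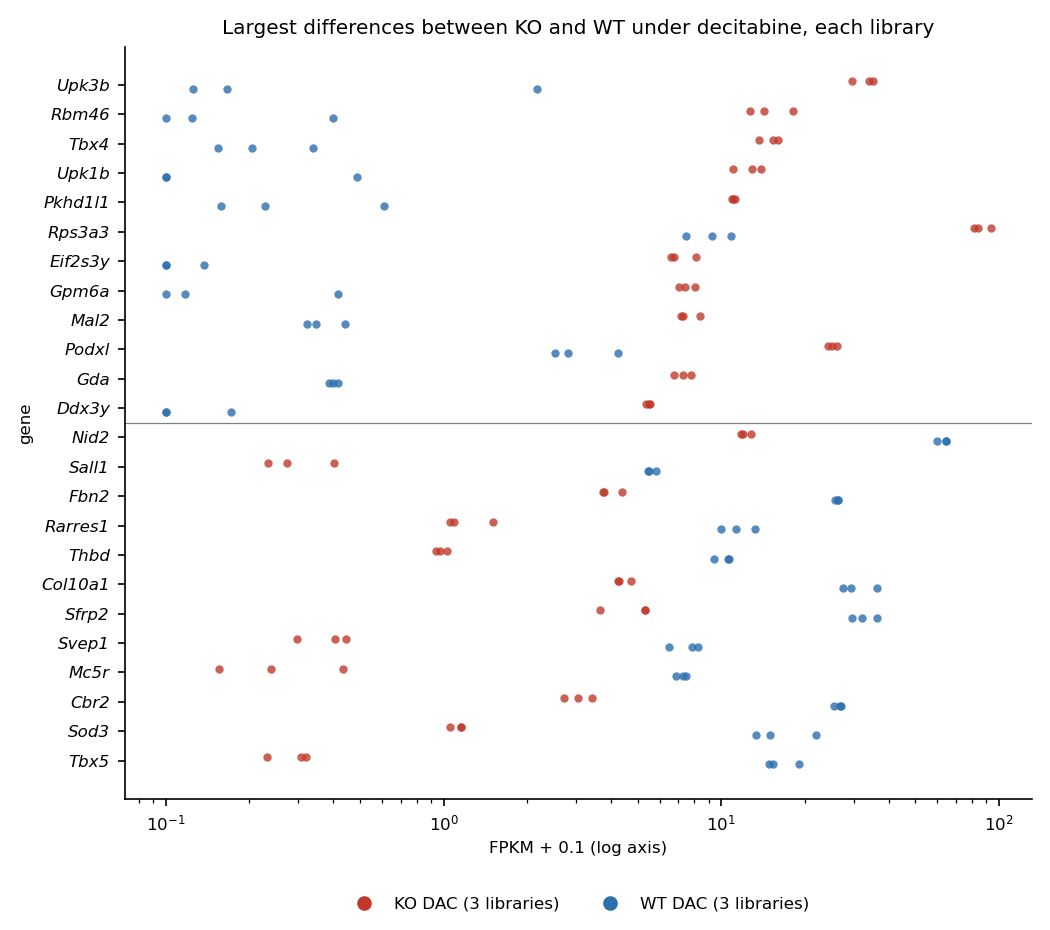
FPKM plus 0.1 on a log axis for the 12 genes highest and the 12 lowest in KO relative to WT under DAC, with 1 point per library (3 KO DAC in red, 3 WT DAC in blue). The libraries of the genotypes do not overlap in any of these genes, which the naming rule required, and 1 WT DAC library (replicate 3) carries more Upk3b than the other WT libraries.

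Mesothelial genes were higher in KO as a group. Of 22 measured markers 16 rose and 1 fell (11.1% and 11.6% of all genes), with a median difference of 0.99 against −0.001 for all genes. The list was drawn up with the KO results in view, so its direction is not independent evidence. Wt1, the mesothelial transcription factor, was at 4.77, 5.86 and 5.8 FPKM in KO and 0, 0.00953 and 0.212 in WT (2.59 ± 0.10, adjusted p = 1.2e-06). Podxl had 24.1, 24.9 and 25.9 against 2.71, 2.43 and 4.15. Ezrin (Ezr), which ties membrane to actin in microvilli, was the most abundant member at 46.6, 47.8 and 44.8 against 16.2, 16.2 and 15.6 (1.48 ± 0.04, adjusted p = 2.8e-07). The simple keratin Krt18 stood at 10.4, 14.1 and 14.2 against 4.88, 5.69 and 3.19 (1.33 ± 0.18, adjusted p = 0.001). Not every member followed: Krt19 had 8.03, 12.2 and 9.23 in KO and 8.83, 8.7 and 4.48 in WT (0.41 ± 0.23, adjusted p = 0.26). Mesothelin (Msln), the best-known marker of the tissue, was lower in KO at 21.1, 25 and 23.6 against 34.4, 38.5 and 26.6 (−0.48 ± 0.15, adjusted p = 0.048). That call was lost in each fit that left out 1 library, except the one without WT DAC replicate 3.

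The sum over the 23 mesothelial markers with an entry was 233 to 259 FPKM in KO DAC and 105 to 121 in WT DAC. It was 1620 to 1660 in KO DMSO and 88.9 to 89.9 in WT DMSO, so the KO libraries under DAC carried far less mesothelial transcript than those in DMSO. Upk3b was at 372 and 396 FPKM in KO DMSO, Wt1 at 60.2 and 62.7 and Podxl at 290.1 and 284. The genotype difference was smaller under DAC than in DMSO for 19 of the 22 members by the test of the difference itself (background 11.7% of genes), as for Upk3b (−3.98 ± 0.57, adjusted p = 0.0013) and Podxl (−4.03 ± 0.21, adjusted p = 6.5e-06). The retinoic-acid enzyme Aldh1a2 and the factor Bnc1 were still higher in KO under DAC, by 0.72 and 0.94, against 5.03 and 4.55 in DMSO. Every KO DMSO library lay above every KO DAC library in these 3 genes. In bulk RNA, fewer cells of a type and less RNA per cell cannot be told apart. Mesothelial transcript moved with genotype beside every gene group below, and its part in those results was not tested.

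Genes of the extracellular matrix, the network that fibroblasts secrete, were mostly lower in KO under DAC. Of 24 measured collagen genes 17 fell and 2 rose (11.6% and 11.1% of all genes), with a median of −0.82. 1 of the 24, Col7a1, passed the filter on low values only through KO DAC and was not called. Col1a1, the main chain of collagen I, was at 346, 416 and 429 FPKM in KO and 698, 670.0 and 638 in WT (−0.76 ± 0.09, adjusted p = 0.00057). Its partner Col1a2 was at 64.2, 71.5 and 75.3 against 79.9, 78.2 and 68.6 and did not pass (−0.10 ± 0.08, adjusted p = 0.41). Col10a1, a collagen of growth-plate cartilage, had 4.64, 4.16 and 4.2 against 27.2, 29.3 and 36.3 (−2.57 ± 0.10, adjusted p = 1.1e-06). Col12a1, which sits along collagen I fibrils, had 13.5, 14.1 and 13.3 against 44.3, 46.1 and 42.7 (−1.63 ± 0.04, adjusted p = 2.3e-07), and the fibril nucleator Col11a1 fell by 1.71. All 3 chains of collagen V (Col5a1 −0.93, Col5a2 −1.03, Col5a3 −1.06) and the 3 measured chains of collagen VI (Col6a1 −0.78, Col6a2 −0.88, Col6a3 −0.86) fell. In the basement-membrane collagen IV, Col4a1 and Col4a2 fell (−0.85 and −0.98) while Col4a6 rose (0.69) from 0.345, 0.256 and 0.231 to 1.1, 1.04 and 1.05.

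Of 45 other matrix genes 23 fell and 9 rose (11.6% and 11.1% of all genes), with a median of −0.31. Nidogen 2 (Nid2), a linker of basement membranes, was at 11.7, 12.7 and 11.9 FPKM in KO and 64.4, 64.5 and 59.7 in WT (−2.29 ± 0.05, adjusted p = 1.6e-07). The microfibril gene Fbn2 had 3.67, 3.65 and 4.3 against 25.6, 26.1 and 26.1 (−2.47 ± 0.06, adjusted p = 1.6e-07), whereas Fbn1, its relative, rose slightly (0.19). The small leucine-rich proteoglycans, which space collagen fibrils, split. Fmod fell to 0.413, 0.736 and 0.77 from 6.03, 6.02 and 6.98 (−2.17 ± 0.13), Lum (−1.84), Omd (−1.60) and Ogn (−1.58) fell as well, and decorin (Dcn) rose to 25.1, 26.9 and 27.1 from 5.16, 6.96 and 7.74 (1.86 ± 0.12, adjusted p = 1.9e-05). The crosslinking enzyme Lox fell (65.9 against 141 FPKM in the mean, −1.09) and its relative Loxl2 rose (0.75). Thrombospondins went opposite ways, Thbs1 by −1.04 and Thbs2 by 1.13. The most abundant member, fibronectin Fn1, was at 682, 684 and 695 against 743, 756 and 787 and did not pass (−0.15 ± 0.06, adjusted p = 0.088).

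Of 22 genes of matrix proteases and their inhibitors 14 fell and 2 rose (11.6% and 11.1% of all genes), with a median of −0.50. The collagenase Mmp13 fell to 3.98, 3.55 and 3.88 FPKM from 8.24, 10.9 and 9.87 (−1.14 ± 0.09, adjusted p = 8e-05). The procollagen peptidase Adamts2 fell by 0.97 and the membrane-type protease Mmp15 by 0.90. Timp2, the most abundant inhibitor, stood at 187, 194 and 185 against 208, 206 and 208 and missed the threshold (−0.14 ± 0.04, adjusted p = 0.053). Enzymes and inhibitors were thus lower together with the collagens: Timp1 (−0.67) and Timp3 (−0.63) fell alongside Mmp2 (−0.60) and Mmp14 (−0.56). Among 11 fibroblast markers 5 fell and 2 rose. Thy1, a surface glycoprotein used to sort fibroblasts, rose to 169, 184 and 191 from 56, 52.5 and 49.4 (1.77 ± 0.07, adjusted p = 1.6e-06), and the platelet-derived growth factor receptor Pdgfrb fell to 19.6, 21.9 and 22.9 from 45.9, 44.6 and 37.4 (−0.96 ± 0.09, adjusted p = 0.00017).

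**Figure D2:**
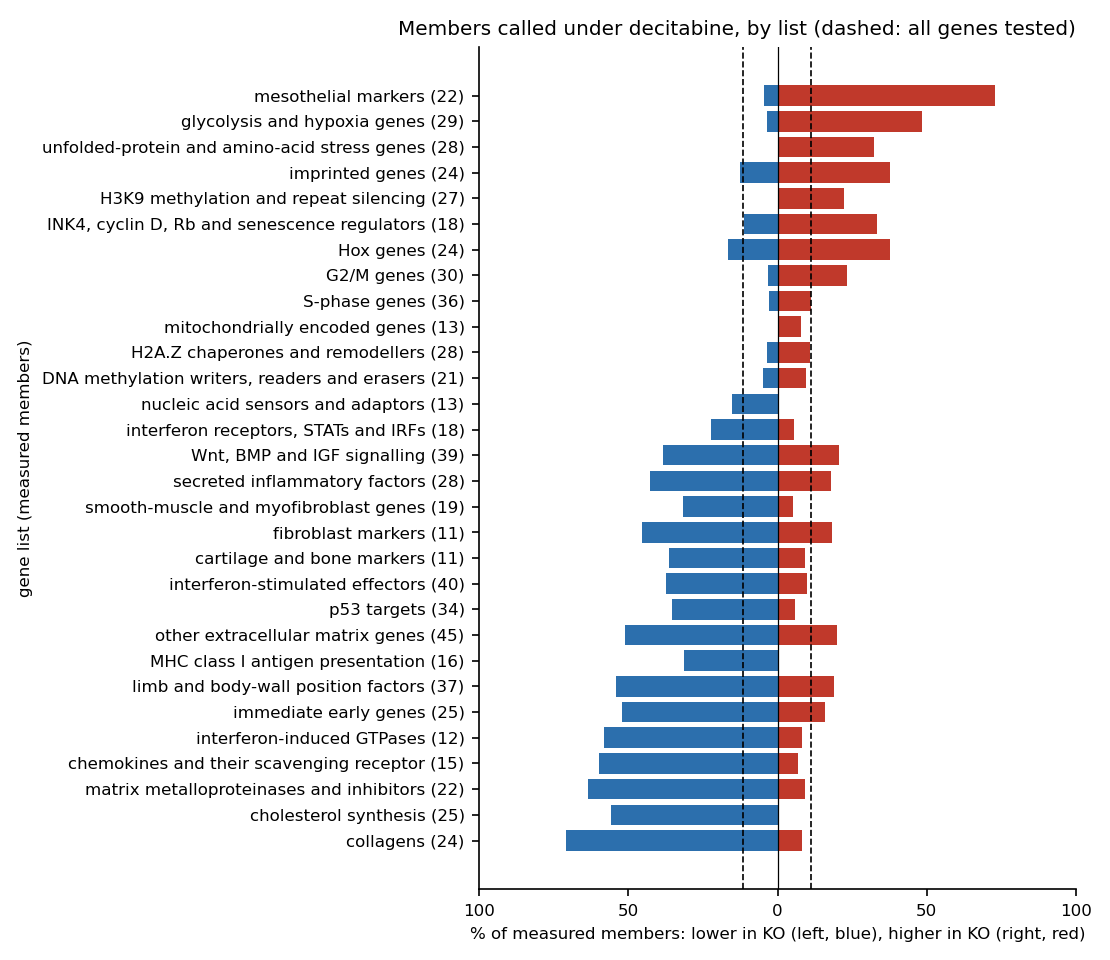
Share of measured members called higher (red, right) or lower (blue, left) in KO under DAC for lists with at least 10 measured members, whose number stands in brackets. The dashed lines mark the shares over all genes tested, 11.1% higher and 11.6% lower. Mesothelial markers are at the top with 16 of 22 higher, and collagens at the bottom with 17 of 24 lower.

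Transcription factors that mark a fibroblast's position in the body differed between the genotypes. Of 37 measured limb and body-wall factors 20 fell and 7 rose (11.6% and 11.1% of all genes, median −0.33). The count of lower members was 14 without KO DAC replicate 2 and also without KO DAC replicate 3. Beside Tbx5, the body-wall and kidney-stroma factor Foxd1 fell to 0.211, 0.234 and 0.242 FPKM from 5.36, 4.76 and 4.67 (−2.27 ± 0.09, adjusted p = 1.2e-06), and Foxc1 to 4.68, 4.7 and 4.49 from 14.3, 14.2 and 16.4 (−1.51 ± 0.07, adjusted p = 2.7e-06). The limb-bud genes Msx2 (−1.45), Lhx9 (−0.96), Irx3 (−1.33) and Tbx3 (−0.80) fell too. Beside Tbx4, the dorsal-limb factor Lmx1b rose to 6.46, 5.72 and 6.24 from 0.304, 0.266 and 0.358 (2.45 ± 0.10, adjusted p = 1.2e-06) and the ventral-limb factor En1 to 6.01, 5.95 and 5.14 from 1.3, 1.25 and 1.15 (1.58 ± 0.10, adjusted p = 1.7e-05). Hand2, a factor of the posterior limb bud and heart, was at 1.27, 1.73 and 2.11 in KO and listed at 0 in all 3 WT DAC libraries. Tbx15, the most abundant, was at 40.4, 35 and 36.5 against 44.3, 43.1 and 49.9 (−0.29 ± 0.07, adjusted p = 0.019), a call lost without KO DAC replicate 2 or 3.

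Of 24 measured Hox genes, which encode position along the body axis, 9 were called higher and 4 lower (11.1% and 11.6% of all genes, median 0.21). Of the 4 lower calls 2 were lost without KO DAC replicate 2 or without replicate 3. 1 of the 24, Hoxa4, passed the filter only through KO DAC and was not called. Most of the higher ones were at low levels, and with the filter set at 5 FPKM 10 members were left, of which 2 were higher and 4 lower, with a median of −0.13. Hoxb9 was at 2.97, 2.92 and 2.81 FPKM in KO and 0.588, 0.608 and 0.558 in WT (1.30 ± 0.06, adjusted p = 4.9e-06), Hoxc6 at 1.28, 1.12 and 0.956 against 0, 0.049 and 0.0519 (1.03 ± 0.11, adjusted p = 0.00031), and Hoxc9 at 0.402, 0.527 and 0.424 while listed at 0 in WT DAC. The most abundant member, the distal-limb gene Hoxd13, was lower at 63.2, 55.4 and 54.8 against 69.4, 73.6 and 83 (−0.38 ± 0.08, adjusted p = 0.01).

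Secreted signals shifted in the same libraries. Of 39 genes of Wnt, BMP and IGF signalling 15 fell and 8 rose (11.6% and 11.1% of all genes), 1 of the 8 (Lef1) having passed the filter only through KO DAC. Sfrp2, a secreted Wnt antagonist, fell to 3.55, 5.22 and 5.22 FPKM from 29.5, 32 and 36.1 (−2.58 ± 0.12, adjusted p = 4.4e-06), the BMP antagonist Chrdl1 fell by 1.74 and the Wnt agonist Rspo2 by 1.42. Igfbp6, which binds IGF2, rose to 20, 31.3 and 29.8 from 6.95, 7.94 and 5.14 (1.86 ± 0.18, adjusted p = 0.00021). Igfbp7, the most abundant member, was at 124, 112 and 96.2 against 104, 106 and 119.8 and did not pass (0.00 ± 0.10, adjusted p = 0.98). Of 15 chemokine genes 9 fell and 1 rose (median −0.48, 6 fell without WT DAC replicate 1). Of the 15, 2 passed the filter only through their higher group, Cxcl3 through WT DAC and Ccl8 through KO DAC. Ackr3, the scavenging receptor for Cxcl12, fell to 1.28, 1.25 and 1.06 from 5.74, 6.56 and 7.66 (−1.79 ± 0.12, adjusted p = 2.2e-05), and Cxcl14 to 0.0714, 0.0351 and 0.0892 from 4, 4.28 and 4.49 (−2.30 ± 0.16, adjusted p = 3.1e-05). Cxcl16 was the one that rose (0.95). Cxcl10, the most abundant and an interferon target, had 49.3, 68.2 and 67.6 against 87.1, 87.2 and 56.9 with overlapping libraries (−0.30 ± 0.18, adjusted p = 0.28).

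Of 28 secreted inflammatory factors 12 fell and 5 rose, where 11.6% of all genes fell and 11.1% rose (7 fell without WT DAC replicate 2). The interleukin-1 antagonist Il1rn fell by 0.94 and the complement protease C1ra by 0.69, and the cytokine Il18 rose by 0.87. Among 25 immediate early genes, the quick targets of growth-factor signalling, 13 fell and 4 rose (9 fell without KO DAC replicate 3, and 2 rose without KO DAC replicate 2, KO DAC replicate 3 or WT DAC replicate 3). Egr3 fell to 3.4, 4.29 and 3.56 from 7.79, 8.07 and 8.42 (−0.94 ± 0.08, adjusted p = 9.9e-05) and Egr1, the most abundant, to 152, 160.3 and 159 from 198, 185 and 228 (−0.37 ± 0.08, adjusted p = 0.013), while the AP-1 subunit Fosl1 rose to 79.8, 81.2 and 80.1 from 55.4, 54.5 and 58 (0.52 ± 0.08, adjusted p = 0.003). Of 19 smooth-muscle and myofibroblast genes 6 fell and 1 rose (9 and 3 in the count test on recovered reads). The number that fell was 4 without KO DAC replicate 1, WT DAC replicate 1 or WT DAC replicate 2. Lmod1, an actin nucleator, fell by 1.00, and Acta2, smooth-muscle actin, stood at 132, 162 and 152 against 264, 268 and 184 (−0.67 ± 0.15, adjusted p = 0.016, lost without KO DAC replicate 1, WT DAC replicate 1 or WT DAC replicate 2).

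Interferon-stimulated genes encode antiviral effectors switched on through the STAT and IRF factors, which bind a response element whose core reads GAAA, NN (any 2 bases) and GAAA. The 250 bases before the RefSeq start (GRCm38.p6, the build also named mm10) were searched on both strands for that core, where overlapping matches count separately. It was present in 2.98% of the 32851 promoters in the table. That share counts each start, whereas a gene below counts once if any of its starts holds the core, so the units differ. A promoter was found for 15 of the 19 called effectors, and the core for 5 of 11 lower and 1 of 4 higher ones (Oas3), and for 4 of 5 lower members with a promoter among the interferon-induced GTPases. A match describes the letters in this window and is not a measured binding site. The lists are of interferon targets and members that were not called were not searched, so these shares do not bear on the direction in KO. The promoters of Ifit1, Oas1g and, at the first of its 2 starts, Trim30a, which were lower in KO, are shown 5′ to 3′ with the core in capitals, for they are examples of called genes that hold it.

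Ifit1 (chr19:34640639-34640888, plus strand): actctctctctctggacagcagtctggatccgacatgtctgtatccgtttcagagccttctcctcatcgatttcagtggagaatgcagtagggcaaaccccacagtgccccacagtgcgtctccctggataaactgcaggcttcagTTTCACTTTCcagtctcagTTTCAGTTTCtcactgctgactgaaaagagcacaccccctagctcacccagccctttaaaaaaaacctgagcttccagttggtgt

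Oas1g (chr5:120887614-120887863, minus strand): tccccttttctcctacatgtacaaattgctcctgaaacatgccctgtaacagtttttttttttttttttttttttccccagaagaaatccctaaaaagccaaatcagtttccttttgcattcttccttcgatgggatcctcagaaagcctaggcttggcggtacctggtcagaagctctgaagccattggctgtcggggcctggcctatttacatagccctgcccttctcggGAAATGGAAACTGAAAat

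Trim30a (chr7:104465194-104465443, minus strand): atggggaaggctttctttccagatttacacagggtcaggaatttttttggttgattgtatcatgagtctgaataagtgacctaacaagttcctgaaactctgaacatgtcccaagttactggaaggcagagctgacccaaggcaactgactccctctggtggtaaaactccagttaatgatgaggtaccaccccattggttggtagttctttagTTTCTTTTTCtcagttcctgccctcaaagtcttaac

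Of 40 measured interferon-stimulated effectors 15 were lower in KO under DAC and 4 higher (11.6% and 11.1% of all genes), with a median of −0.23. The count of lower members was 9 without WT DAC replicate 1 and 10 without WT DAC replicate 2, with 2 higher in each. Ifit1, which binds foreign RNA ends, was at 86.8, 91.3 and 86.3 FPKM in KO and 122, 125 and 128 in WT (−0.50 ± 0.05, adjusted p = 0.00025). Trim30a had 20.8, 21.1 and 21.7 against 31.2, 31 and 33.6 (−0.57 ± 0.07, adjusted p = 0.00055), Oas1g, a copy of the 2-5A synthetase gene in a near-identical family, 9.86, 13.1 and 14 against 19.3, 19.5 and 17.9 (−0.59 ± 0.13, adjusted p = 0.012), and Phf11d 9.15, 8.16 and 8.52 against 18, 16.9 and 16.6 (−0.92 ± 0.07, adjusted p = 3.9e-05). Isg15, a ubiquitin-like modifier, overlapped between the genotypes at 84.1, 119 and 116 against 185, 162 and 103 (−0.47 ± 0.22, adjusted p = 0.17). Against that direction, Oas3, the large 2-5A synthetase, was higher in KO at 30.2, 31.1 and 30.3 against 16.8, 15.3 and 16.6 (0.87 ± 0.06, adjusted p = 2.5e-05), and so was Ifitm1, a membrane protein that blocks virus entry, at 3.87, 3.22 and 3.96 against 0.961, 0.836 and 1.03 (1.27 ± 0.12, adjusted p = 0.00017).

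The difference was smaller than in DMSO. There 35 of the 40 effectors were lower in KO (22.9% of all genes were), with a median of −1.04. By the test of the difference 33 had a more positive difference under DAC (background 12.4%). Ifit1 was at 22.6 and 25 in KO DMSO and 82.9 and 86.7 in WT DMSO, so its KO minus WT difference went from −1.79 to −0.50. Oas3 was at 0.487 and 0.61 FPKM in KO DMSO and 0.324 and 0.304 in WT DMSO, below 1 in all 4 libraries. Of 12 measured interferon-induced GTPases 7 were lower under DAC and 1 higher, where 11.6% of all genes were lower and 11.1% higher (1 of the 12, Gbp9, passed the filter only through WT DAC). Gbp3, a guanylate-binding protein, was at 16.5, 20.4 and 19.4 against 30.8, 27.2 and 25.8 (−0.55 ± 0.10, adjusted p = 0.0051) and Gvin1, the very large interferon-inducible GTPase, at 88.8, 85.5 and 84.9 against 65.7, 67.3 and 65.9 (0.38 ± 0.07, adjusted p = 0.0077).

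The upstream lists are set beside all genes tested, of which 11.1% were called higher and 11.6% lower. Of 13 nucleic acid sensors and adaptors 2 were lower, a count near that share. Both are RNA helicases: Ifih1 (MDA5) at 19, 18.7 and 18.4 against 23.6, 23.8 and 22.1 (−0.29 ± 0.05, adjusted p = 0.0039) and Ddx58 (RIG-I) at 37.8, 35.9 and 35.6 against 42.5, 41.8 and 43 (−0.21 ± 0.04, adjusted p = 0.008). Of 18 interferon receptors, STATs and IRFs 4 fell, among them Irf9, the DNA-binding part of the ISGF3 complex (11.4, 12.2 and 12.4 against 18.3, 17.5 and 15.6, −0.48 ± 0.07), and both interferon-gamma receptor chains, Ifngr1 (−0.43) and Ifngr2 (−0.46). Irf5 rose (0.69). Stat2 was at 57.1, 60.3 and 64.3 against 66.9, 65.1 and 62.9 and did not pass (−0.10 ± 0.07, adjusted p = 0.34). Among 16 genes of MHC class I antigen presentation 5 were lower and 0 higher at limma's adjusted threshold, with 3 lower when KO DAC replicate 1 or 3 or WT DAC replicate 1 or 2 was left out and 8 in the count test on recovered reads. H2-T23 had 2.26, 3.6 and 2.86 against 6.61, 6.5 and 5.17 (−0.87 ± 0.14, adjusted p = 0.0027), and the light chain B2m 3753, 3417 and 3409 against 3368, 3574 and 4265 (−0.08 ± 0.12, adjusted p = 0.71).

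Germline genes whose promoters are methylated in somatic cells were read gene by gene. Of 33 such genes 9 passed the filter on low values. Dazl, Taf7l and Piwil2 did so only through KO DAC, so that they had to be higher there. Their values are given as a description with no test, and no count of members is given as support. Their promoters were searched for the E-box CACGTG, bound by MYC-MAX and by MAX-MGA, a repressor of germline genes. It occurred in 6.02% of all promoters, counted per start and not per gene. Of the 7 called members with a promoter, Slc25a31 and Taf7l hold it, and Taf7l passed the filter only through KO DAC. Rbm46, named above for its large difference and the only gene searched from outside the list, holds it as well. These matches are a description. CG pairs, the sites of DNA methylation, number 6 at the median of all promoters in these 250 bases, with quartiles of 2 and 16. Of the called members with a promoter, Dazl has 20, Slc25a31 18, Sohlh2, Tuba3b and Taf7l 14 each, Xlr3b 6 and Rhox5 4. The first 3 of these promoters are printed with every CG pair in capitals, since decitabine acts through the methylation of these letter pairs.

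Dazl (chr17:50293621-50293870, minus strand): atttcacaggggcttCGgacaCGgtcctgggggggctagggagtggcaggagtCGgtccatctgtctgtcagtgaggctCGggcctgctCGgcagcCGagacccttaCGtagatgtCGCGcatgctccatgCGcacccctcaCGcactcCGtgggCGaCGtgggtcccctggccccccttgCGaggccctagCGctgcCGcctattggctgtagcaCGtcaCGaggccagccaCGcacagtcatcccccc

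Slc25a31 (chr3:40708621-40708870, plus strand): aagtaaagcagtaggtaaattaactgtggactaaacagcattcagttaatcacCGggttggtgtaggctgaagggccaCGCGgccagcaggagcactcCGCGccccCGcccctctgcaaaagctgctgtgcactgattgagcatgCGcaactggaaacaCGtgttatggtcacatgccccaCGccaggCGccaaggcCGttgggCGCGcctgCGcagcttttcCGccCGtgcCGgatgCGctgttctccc

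Sohlh2 (chr3:55181794-55182043, plus strand): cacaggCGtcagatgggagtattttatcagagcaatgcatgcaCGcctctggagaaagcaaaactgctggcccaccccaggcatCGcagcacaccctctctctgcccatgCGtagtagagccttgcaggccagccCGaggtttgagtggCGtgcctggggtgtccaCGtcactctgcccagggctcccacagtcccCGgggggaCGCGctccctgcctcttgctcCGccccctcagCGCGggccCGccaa

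Dazl, an RNA-binding protein needed for germ cells, was at 2.74, 2.5 and 2.27 FPKM in KO DAC and 0.294, 0.201 and 0.467 in WT DAC, and at 0.0247 and 0.0438 in KO DMSO while listed at 0 in WT DMSO. Sohlh2, a germ-cell transcription factor, stood at 4.2, 3.45 and 3.33 against 1.56, 1.46 and 1.37 (0.92 ± 0.09, adjusted p = 0.00023). Tuba3b, a testis tubulin, had 4.77, 4.78 and 5.46 against 2.33, 1.91 and 1.48 (1.05 ± 0.12, adjusted p = 0.00046). Taf7l, a testis form of a TFIID subunit, had 2.57, 1.62 and 2.09 against 0.551, 0.565 and 0.667. In Sohlh2 and Tuba3b each KO DAC library lay above each WT DAC library. Rhox5, an X-linked homeobox gene, was the most abundant at 9.32, 12.6 and 13.8 against 6.07, 8.26 and 5.3 (0.78 ± 0.17, adjusted p = 0.012, not called with a pseudocount of 0.1). The ADP/ATP carrier Slc25a31 was also higher (0.47 ± 0.09), and Piwil2, of the piRNA pathway, stood at 1.07, 1.01 and 0.75 against 0.447, 0.324 and 0.191. The exception was Xlr3b, an X-linked gene with near-identical copies, at 0.258, 0.152 and 0.115 in KO and 2.16, 2.66 and 2.14 in WT (−1.50 ± 0.10, adjusted p = 1.9e-05). In WT DMSO it was at 2.03 and 2.14, where Rhox5 had 0.259 and 0.337 and Taf7l 0.0145 and 0.255. The genotype difference was larger under DAC than in DMSO by the test of the difference for Sohlh2 (0.85 ± 0.14, adjusted p = 0.0032) and Tuba3b (1.02 ± 0.19, adjusted p = 0.0051).

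**Figure D3:**
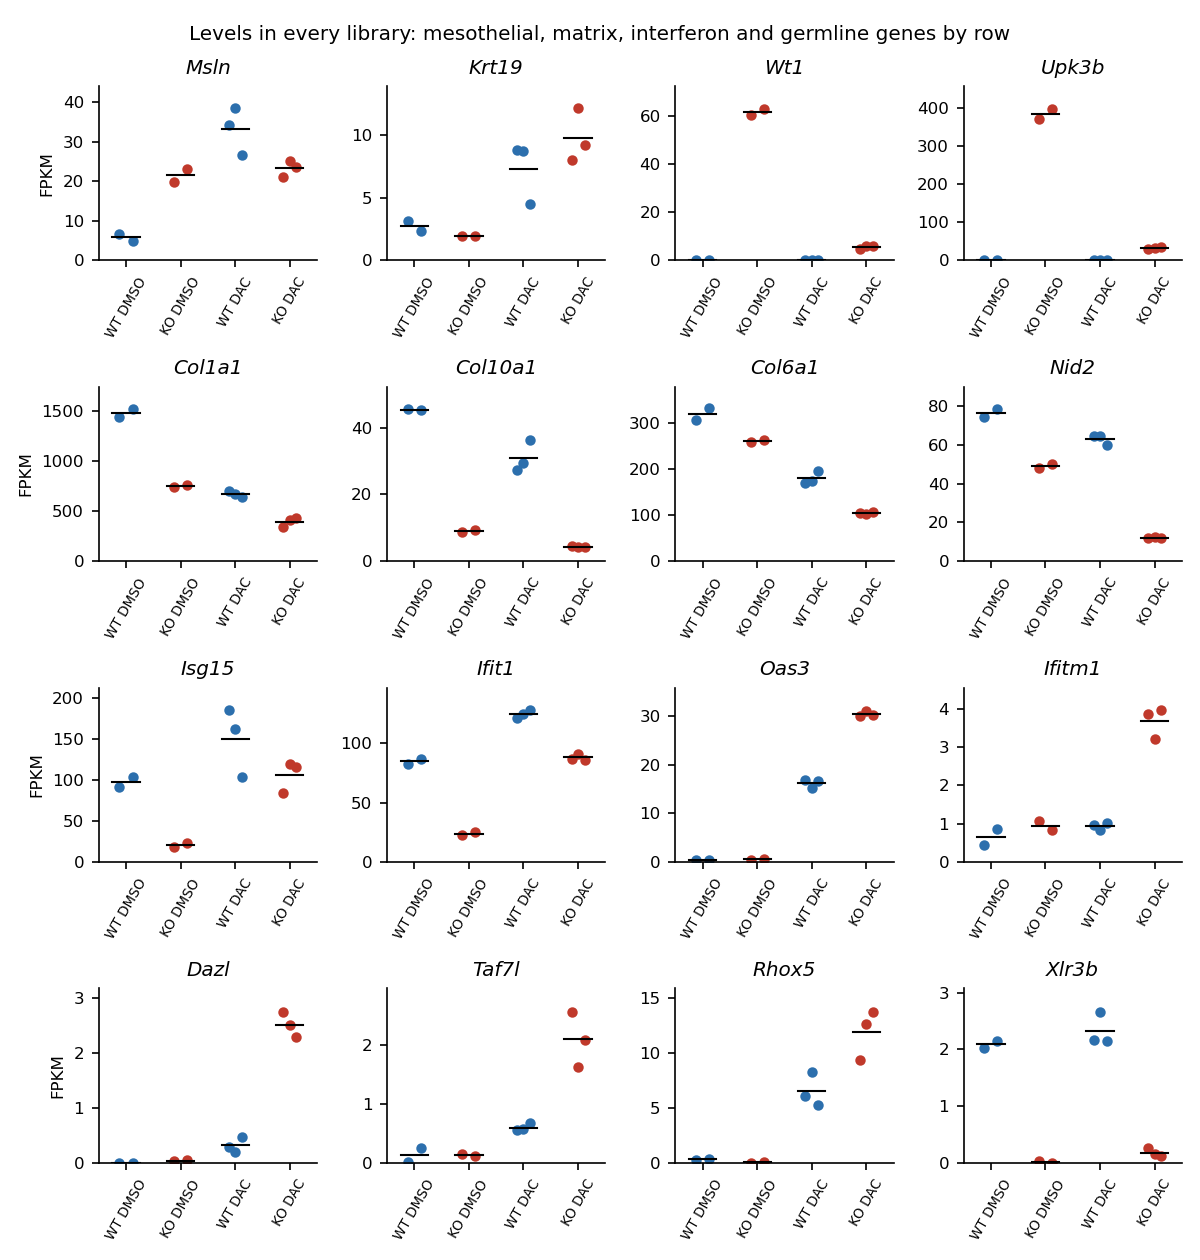
FPKM in every library of the DAC table (points; WT blue, KO red; bars are group means) for 4 mesothelial genes (top row), 4 matrix genes, 4 interferon genes and 4 germline genes (bottom row); each panel has its own axis from 0. Upk3b and Wt1 are far higher in KO DMSO than in KO DAC, the matrix genes are lower in KO DAC than in WT DAC, and Rhox5 is near 0 in DMSO and higher in KO DAC than in WT DAC.

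Of 24 measured imprinted genes, expressed from the copy of 1 parent, 9 were higher and 3 lower in KO under DAC (11.1% and 11.6% of all genes). 1 of the 9, Meg3, passed the filter only through KO DAC, so that it had to be higher there. The noncoding RNA H19 was at 64, 73.3 and 88 FPKM in KO and 13.4, 14.3 and 20.5 in WT (2.17 ± 0.16, adjusted p = 4.5e-05). Ndn (necdin) rose to 6.82, 6 and 7.91 from 2.02, 1.43 and 1.32 (1.61 ± 0.16, adjusted p = 0.00025), and the growth inhibitor Cdkn1c to 12.3, 10.3 and 9.18 from 2.75, 2.63 and 4.07 (1.49 ± 0.17, adjusted p = 0.00047). Dlk1 was higher (1.57). The value of its neighbour Meg3, expressed from the opposite parental copy, was 0.96 and is given as a description only. Plagl1, a zinc-finger factor, was the most abundant member and fell to 36.8, 24.3 and 24.1 from 84.2, 88.4 and 165 (−1.91 ± 0.26, adjusted p = 0.0013). Peg10, a retrotransposon-derived gene, fell to 13, 10.4 and 9.9 from 16.3, 16.5 and 21.6 (−0.66 ± 0.12, adjusted p = 0.006).

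A list named for the machinery that writes, reads and erases DNA methylation was counted next, where 11.1% of all genes were higher and 11.6% lower. Of 21 genes 2 were higher and 1 lower (4 and 3 without WT DAC replicate 3 and KO DAC replicate 1 together). Uhrf1, which brings DNMT1 to newly copied DNA, was at 54, 51.2 and 52.3 FPKM in KO and 38.9, 35.4 and 36.1 in WT (0.50 ± 0.05, adjusted p = 0.0002), against 36.5 and 34.6 in KO DMSO and 36.1 and 35.2 in WT DMSO, and the difference between the differences was 0.51 ± 0.08 (adjusted p = 0.0018). The other higher one was Gadd45a, a stress gene that is also a p53 target (0.61). The lower one was Samhd1 (−0.34), a nucleotide hydrolase and not itself a writer, reader or eraser. Dnmt1, the target of decitabine, stood at 50.4, 61.1 and 60.9 against 61.1, 59 and 48.9 (0.03 ± 0.10, adjusted p = 0.87). Of 27 genes of H3K9 methylation and repeat silencing 6 were higher and 0 lower at limma's adjusted threshold (3 higher in a fit of only the 6 DAC libraries, 6 higher and 2 lower without WT DAC replicate 3, and 8 and 2 without KO DAC replicate 1 as well). Suv39h1, an H3K9 methyltransferase encoded on the X chromosome, was at 15.9, 15.2 and 14.8 against 10.5, 10.3 and 9.85 (0.54 ± 0.05, adjusted p = 0.00019).

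The cell-cycle lists are set beside all genes tested, of which 11.1% were called higher and 11.6% lower. Of 30 G2/M genes 7 rose and 1 fell (median 0.14), with the mitotic factor Foxm1 at 40.2, 40.8 and 41.5 against 31.3, 31.3 and 30.3 (0.39 ± 0.04, adjusted p = 0.00019) and Mki67, the most abundant, at 75.1, 73.8 and 72.9 against 70.6, 71.8 and 70.4 (0.06 ± 0.04, adjusted p = 0.29). Of 36 S-phase genes 4 rose and 1 fell, and 11.1% of all genes rose. Among 18 INK4, cyclin D, Rb and senescence regulators 6 rose and 2 fell. The chromatin proteins Hmga1 (378, 380.0 and 375 against 212, 204 and 196, 0.89 ± 0.08) and Hmga2 (116, 98.6 and 93 against 52.6, 52.5 and 53.4, 0.94 ± 0.08) were the highest after Cdkn1c, and Rb1 was lower (−0.47). Of 34 p53 targets 12 fell and 2 rose (median −0.09, 8 fell without WT DAC replicate 2). Perp, a desmosomal p53 target, fell to 14.8, 18 and 15.9 from 34.4, 34.6 and 27.9 (−0.95 ± 0.10, adjusted p = 0.00032), Fas, the death receptor, by 0.60 and the cell-cycle inhibitor Cdkn1a by 0.50 (65, 75.3 and 71.3 against 109, 112 and 82.7).

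The metabolic lists differed in direction, where 11.1% of all genes were called higher and 11.6% lower. Of 25 genes of cholesterol synthesis and uptake 14 fell and 0 rose at limma's adjusted threshold, with a median of −0.34 (9 fell without WT DAC replicate 2). Hmgcs1, the enzyme ahead of HMG-CoA reductase, was at 20.1, 19.1 and 20.4 against 33.3, 32.9 and 29.2 (−0.65 ± 0.06, adjusted p = 0.00016), and Srebf2, the pathway's transcription factor, at 49, 51.8 and 54 against 74.1, 72.1 and 65.5 (−0.44 ± 0.06, adjusted p = 0.0012). Of 29 glycolysis and hypoxia genes 14 rose and 1 fell (median 0.22), 9 and 2 without KO DAC replicate 2, 15 and 3 without WT DAC replicate 3. The high-affinity glucose transporter Slc2a3 was at 2.57, 2.69 and 3.26 against 0.444, 0.244 and 0.349 (1.51 ± 0.10, adjusted p = 2.2e-05), and the HIF target Egln3 at 6.14, 5.96 and 5.46 against 1.56, 1.4 and 1.79 (1.41 ± 0.08, adjusted p = 1.1e-05). Of 28 genes of the unfolded-protein and amino-acid stress responses 9 rose and 0 fell at limma's adjusted threshold, led by asparagine synthetase Asns (40.1, 38.8 and 35.9 against 21.4, 22 and 22.4, 0.77 ± 0.09). Their number was 5 without KO DAC replicate 2, KO DAC replicate 3 or WT DAC replicate 3, and the last of these fits called 3 lower.

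The same contrast in DMSO, made on other libraries of the same genotypes, called 6976 genes (42.4%), 3219 higher and 3757 lower. Of the 1828 genes higher under DAC 1150 (62.9%) were also higher in DMSO, which is 35.7% of the DMSO list (19.6% of all genes were higher in DMSO), and 103 were lower there. Of the 1902 lower genes 1330 (69.9% of the DAC list, 35.4% of the DMSO list) were lower in both, where 22.9% of all genes were lower in DMSO, and 108 had the opposite sign. Across genes the 2 differences correlated at r = 0.578 (n = 16434 genes, which are not independent). Large differences in DMSO were seldom as large under DAC: 127 of 997 genes at least 2-fold higher in DMSO (12.7%) were at least 2-fold higher under DAC, as were 116 of 716 lower ones (16.2%). The genotype difference itself changed in 3960 genes (24.1%), more positive under DAC in 2032 (1345 without KO DMSO replicate 1) and more negative in 1928. That change was at least 2-fold in 370 (2.25%) and 796 (4.84%) of them.

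In 2909 genes the genotypes differed in DMSO, with a called change of the difference, and lay within 0.5 of each other on the log2 scale under DAC. Complement C3 was at 79.4 and 83.8 FPKM in KO DMSO and 2.78 and 2.75 in WT DMSO, but at 7.59, 8.77 and 10.4 in KO DAC and 11.2, 11.6 and 12.4 in WT DAC (change −4.83 ± 0.15, adjusted p = 7.8e-07). Lgals2, a galectin, was at 66.5 and 65.4 in KO DMSO and 4.31 and 2.21 in WT DMSO, but at 3.25, 3.15 and 3.21 in KO DAC and 2.46, 3.8 and 3.28 in WT DAC (−4.00 ± 0.28, adjusted p = 2.6e-05). Ptgds (−3.99), Foxo6 (−3.59), C1qtnf7 (−3.68) and the ezrin partner Slc9a3r1 (−3.39) followed the same pattern. In each of these 6 the KO DMSO level was the high one.

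In 40 genes a difference of at least 1 was called under DAC and in the test of the change, and none was called in DMSO. Cyba, a subunit of the NADPH oxidases, had 3.13, 4.64 and 3.86 FPKM in KO DAC and 22.2, 19 and 15.6 in WT DAC, but 15.8 and 19 in KO DMSO and 16.9 and 17.1 in WT DMSO (change −2.05 ± 0.23, adjusted p = 0.00033). The 3 KO DAC libraries were the low ones. The neural factor Bhlhe22 had 1.26, 1.65 and 1.45 against 7.82, 7.73 and 7.04 under DAC and 4.4 and 4.98 against 5.54 and 5.03 in DMSO (−1.66 ± 0.13, adjusted p = 4.7e-05). Gdf7, a BMP ligand, had 8.28, 9.6 and 10.2 against 2.85, 3.08 and 2 under DAC and 1.37 and 1.12 against 0.718 and 0.903 in DMSO (1.20 ± 0.20, adjusted p = 0.0032). The heparin-binding factor Ptn (1.55) and Cdkn1c (1.77) moved up in the same way, and Pcp4l1 (−2.01) moved down.

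In 211 genes the sign turned. Aqp1, a water channel, was higher in KO under DAC (54, 54.4 and 54.8 against 32.1, 35.1 and 34.8) and lower in DMSO (15.4 and 15.6 against 50 and 54.6, change 2.35 ± 0.08, adjusted p = 9.4e-07). Bmp4 was lower in KO under DAC (4.86, 5.54 and 5.31 against 10.8, 11.7 and 11.2) and higher in DMSO (29.8 and 28.9 against 9.79 and 9.29, −2.50 ± 0.09, adjusted p = 1.3e-06). Thsd7a turned upward (1.79), and Serpina3g (−1.95), Cryl1 (−1.65) and H2-Q6 (−4.09) downward. H2-Q6 has near-identical copies, so its value is uncertain, and its call under DAC was lost when KO DAC replicate 1 or 3 or any WT DAC library was left out.

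**Figure D4:**
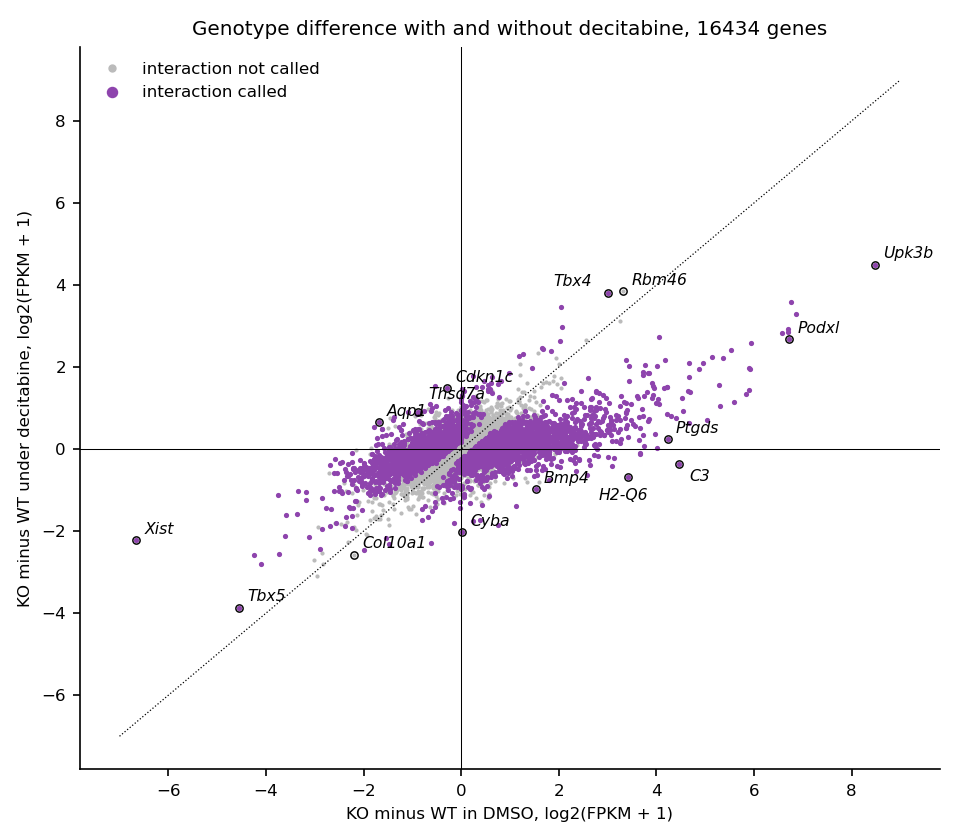
KO minus WT difference on the log2(FPKM + 1) scale in DMSO (x axis) and under DAC (y axis) for 16434 genes, purple where the difference between the 2 is called; the dotted line marks equal differences. Upk3b and Podxl lie far below the line, Tbx4, Rbm46 and Tbx5 near it, C3 and Ptgds near 0 under DAC, and Cyba near 0 in DMSO.

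KO and WT cells with NT siRNA, in the separately normalised table, gave a further genotype contrast with no DMSO or DAC library in it. There 3004 of 12668 genes were higher and 5122 lower (64.1% called). That split became 4288 higher and 3780 lower once each library was centred on its median, since the median of all genes was −0.10. Among 11906 genes tested in both tables, 628 of the 1359 higher under DAC (46.2%) were higher with NT siRNA, where 24.4% of these genes were higher, and 331 (24.4%) were lower. These 628 are 21.7% of the NT list. Of 1515 lower under DAC 852 (56.2%) were lower with NT siRNA, where 41.3% of these genes were lower, and 852 is 17.3% of the NT list. The differences correlated at r = 0.383 across those genes. Tbx5 was lower (−1.43) and Tbx4 higher (2.50) there as well, as were Upk3b (6.04) and Wt1 (2.44). Of 20 mesothelial markers tested 18 were higher, where 23.7% of the 12668 genes were higher and 40.4% lower. The collagens were split, with 8 higher and 8 lower of 20, and Col1a1 was higher in KO (0.57 ± 0.07, adjusted p = 1.8e-05), opposite to DAC. Sfrp2 was higher too (0.68 ± 0.12, adjusted p = 0.00035). A test of the difference between the tables was not made, since they were normalised separately.

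Calls were unevenly spread over the chromosomes, for the 14407 tested genes (87.7%) with a position. On chromosome 6, 26.4% of 701 genes were higher and 5.8% lower in KO under DAC (11.1% and 11.6% of all genes), and on chromosome 11 22.2% of 1181 were higher and 4.7% lower. On chromosome 14, 30.8% of 481 genes were lower and 4.4% higher, on chromosome 13 25.7% of 495 were lower, and on chromosome 10 23.4% of 679. The chromosome medians were 0.148 and 0.127 for chromosomes 6 and 11 and −0.186, −0.133 and −0.12 for 14, 13 and 10, with an SD of 0.0817 over the 19 autosomes. In DMSO the medians of chromosomes 6 and 11 were 0.159 and 0.168 and those of 13 and 10 −0.371 and −0.443. Chromosome 14 stood at −0.112 there and at −0.313 with NT siRNA. Of the genes named above, the lower Nid2, Mmp14, Egr3, Phf11d, Irf9, Rb1, Bmp4 and Cryl1 and the higher Loxl2 and Piwil2 lie on chromosome 14. Named genes lie on the other chromosomes given here too. Among them are the higher Podxl on 6 and the higher Tbx4 and lower Cbr2 on 11. The lower Col10a1 lies on 10 and the higher Rps3a3 on 13. DNA copy number was not measured, and its part in these shares was not tested.

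**Figure D5:**
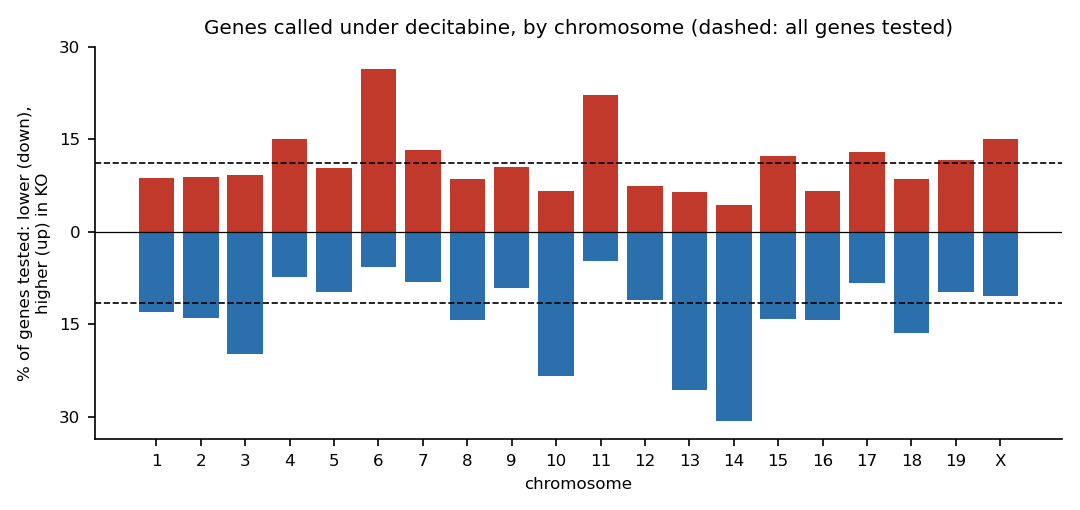
Share of tested genes on each chromosome called higher (red, upward) or lower (blue, downward) in KO under DAC; dashed lines are the shares over all genes, 11.1% and 11.6%. Among autosomes, chromosomes 6 and 11 have the highest shares of higher genes, 26.4% and 22.2%, and chromosomes 14, 13 and 10 the highest shares of lower genes, 30.8%, 25.7% and 23.4%.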

How the data were processed

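RNA-seq of MEFs was analysed from 2 deposited tables. The first holds FPKM per gene for 10 libraries and the second RPKM for the siRNA libraries, both computed by the authors. STAR, Bowtie2, deepTools and the build mm10 are named per the submitters' processing notes, without roles. The libraries were made with a TruSeq Stranded Total RNA kit per the labels' protocols. The counter, annotation and strand setting are, likewise, not given in the sources used here, so a gene and an antisense partner cannot be told apart, and copies with near-identical sequence share reads. Values were taken as log2(FPKM + 1), genes kept at 1 FPKM or more in at least 2 libraries (3 in the siRNA table), and fitted with limma 3.58.1 (R 4.3.3, limma-trend with 4 groups, so that DMSO and DAC libraries share one estimate of the spread). P-values were adjusted over 16434 genes (12668 in the siRNA table) by Benjamini and Hochberg and called under 0.05. FPKM steps gave whole reads (within 0.01) for 30078 of 30078 genes above 0. A count test on those reads (voom) called 2051 higher and 2244 lower. The fit was tested on simulated data. Members, the 40 gene lists and the tests were chosen with earlier results of these data known. The rule named the 12 genes highest and 12 lowest among those called, with libraries that did not overlap and a mean of at least 5 FPKM in the higher group, without predicted genes and pseudogenes. For each list it named up to 3 higher, 3 lower and the most abundant, and up to 6 genes for each way in which the difference changed against DMSO. Further members (such as Wt1, Krt18, Ifit1, Col6a1 and Gadd45a) were named after their values had been seen. Alternatives were the pseudocount (0.1), the filter, median centring, the DAC libraries alone, a 2-fold minimum, the replicate block, no X and Y genes, the count test and leaving out each library. Promoter sequences come from RefSeq (GRCm38.p6). Python 3.11.15, pandas 2.3.3 and matplotlib 3.10.9 were used for tables and plots.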

Additional observations from a re-analysis of the deposited data

Results flagged for a closer look

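The genes below had a genotype difference that was not the same under DAC and in DMSO, by limma's test of the difference between the differences (adjusted p under 0.05, which 24.1% of all genes met). The values are the KO minus WT difference under DAC minus that in DMSO, on the log2(FPKM + 1) scale. It was more negative under DAC for Anp32a (−0.329), a paralogue of Anp32e. Among the genes highest in KO under DAC it was more negative for Upk3b (−3.976), Upk1b (−3.154), Pkhd1l1 (−3.568), Gpm6a (−3.761), Mal2 (−1.312) and Podxl (−4.03) and more positive for Tbx4 (0.816), Eif2s3y (0.923) and Ddx3y (0.617). Among the genes lowest in KO under DAC it was more positive for Tbx5 (0.695), Cbr2 (1.303), Sfrp2 (1.67), Thbd (1.177) and Sall1 (0.469), that is, a smaller deficit, and more negative for Fbn2 (−0.475) and Nid2 (−1.659). Among the genes chosen because the difference was near 0 under DAC were C3 (−4.826), Ptgds (−3.989), Lgals2 (−3.998), Foxo6 (−3.592), C1qtnf7 (−3.68) and Slc9a3r1 (−3.387). Among those chosen because it was called only under DAC were Cyba (−2.048), Bhlhe22 (−1.656), Ptn (1.555), Pcp4l1 (−2.012), Gdf7 (1.203) and Cdkn1c (1.775). Among those chosen because its sign turned were Bmp4 (−2.499), Thsd7a (1.795), Serpina3g (−1.948), Cryl1 (−1.653), H2-Q6 (−4.086) and Aqp1 (2.353). The last 3 sets were picked by this very difference, so their values are a description.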

How the results depend on the processing

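All 24 genes with the largest differences kept direction and call in each other setting that gave a value. Of 192 named genes called under DAC 0 reversed and 156 kept the call in every setting, while 181 of 3027 values lost it. Counts under DAC stayed within 1.5 times of 1828 higher and 1902 lower in all settings but the 2-fold minimum, which left 191 and 172 (370 and 796 for the change against DMSO, from 2032 and 1928). Leaving out 1 library gave 1305 to 1755 higher and 1277 to 2141 lower under DAC. For the change against DMSO it gave 1345 to 2036 higher and 1436 to 1992 lower, 1345 being the count without KO DMSO replicate 1. Such a fit leaves 1 library in a DMSO group, which is assumed to vary like the other groups. Without both WT DAC replicate 3 and KO DAC replicate 1 there were 1825 and 2187, and without X and Y genes 1737 and 1842. Same-numbered libraries deviated together by −0.225, 0.126 and −0.217 (Pearson's r, DAC), and KO DAC replicate 1 correlated best with WT DAC replicate 3 (0.346), so the numbers were not taken as pairs. With the replicate number as a block 1441 and 1510 genes were called under DAC, 1616 and 1651 for the change, 2976 and 3484 in DMSO and 3040 and 5316 with NT siRNA. The signs that turned were all of genes not called under DAC. With 1 library left out at a time their differences ran from −0.079 to 0.1 (Igfbp7), −0.073 to 0.076 (H2afv), −0.003 to 0.276 (H2afz), −0.058 to 0.038 (Anp32a), −0.068 to 0.12 (Dnmt1), −0.148 to 0.022 (B2m), −0.032 to 0.01 (Mcm4), −0.02 to 0.184 (Runx2), −0.02 to 0.085 (Scd1) and −0.109 to 0.127 (Lgals2). Without both doubted libraries Igfbp7 stood at −0.017, H2afv at −0.039 and Alas2 at −0.003, in the count test Igfbp7 at −0.007, and with median centring Mcm4 at 0.003. The cause was not tested. The pseudocount of 1 shrinks differences of genes with a group near or below 1 FPKM, so folds of such genes are understated. That level is well above a few reads, since 1 read in a gene of 1 kb is worth 0.0271 to 0.0325 FPKM in the DAC libraries. Some of the largest differences, such as those of Tbx5 and Gda, are among them.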

Other observations

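Markers of other cell types were present at the following summed levels. Epithelial markers summed to 9.06 to 10.2 FPKM in KO DAC and 6.49 to 8.5 in WT DAC, endothelial markers to 8.35 to 8.94 and 10.7 to 11.2, and macrophage and leukocyte markers to 18.3 to 19.7 and 20.1 to 23.3. Neural and glial markers summed to 36.7 to 42.9 in KO DAC and 28.6 to 34.7 in WT DAC, and cartilage and bone markers to 34.0 to 35.8 and 31.8 to 35.1. Adipocyte markers were at 195 to 209 in KO DAC and 198 to 205 in WT DAC. The lipid genes Scd1 (means of 80.3 and 78.7), Fasn (52.0 and 47.9) and Plin2 (49.7 and 55.0) made up most of that sum, and Adipoq and Plin1 were listed at 0 in WT DAC. The library WT DAC replicate 3 held 2.06 FPKM of Upk3b, 0.212 of Wt1 and 0.0721 of the Y-linked Ddx3y. In WT DAC replicates 1 and 2 Upk3b was at 0.0659 and 0.0252, Wt1 at 0 and 0.00953 and Ddx3y at 0 and 0. Upk3b, Wt1 and Ddx3y are all high in KO DAC. Other mesothelial markers went the other way: Krt18, Krt19 and Msln were lowest in WT DAC replicate 3 among the WT DAC libraries. The cause was not tested.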
